A study of Mus musculus with 2 samples.

Results

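The genes described here are 5 microRNA genes of imprinted loci other than the Dlk1-Dio3 region: Mir335 of the Mest locus, Mir296 and Mir298 of the Gnas locus, Mir675 of H19 and Mir483 of Igf2. They were chosen by their symbols in the GENCODE M21 annotation, though with earlier results of these data known. All 5 were among the 2202 microRNA genes counted. Small RNA was sequenced from the hippocampus of female B6CASTF1/J mice aged 14 days, F1 hybrids with a C57BL/6J and a CAST/EiJ parent. All samples form 1 group of 2 biological replicates, with no treatment and no other genotype, and the labels name 3 females for each replicate, so each library stood for a pool. The labels speak of a hippocampal layer without naming it, and the counts do not separate the alleles from the parental strains.

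An imprinted gene is transcribed from a single parental allele, set by a methylation mark laid down in the egg or sperm. Mest, a hydrolase-like protein, and Igf2, a fetal growth factor, are expressed from the paternal allele in many but not all tissues. Mir335 and Mir483 are processed from their introns, and the allele of origin was not tested here. H19 is a long noncoding RNA made from the maternal allele of the same domain as Igf2, and Mir675 is cut out of its exon. Mir296 and Mir298 lie next to the Gnas locus, on the strand of the paternally expressed antisense RNA Nespas. H19 and Igf2 are known for high expression before birth and a fall after it, and in the postnatal brain Igf2 is made mainly by choroid plexus and meninges. A microRNA finds its messenger RNA targets mostly through its seed, bases 2 to 8 from the 5′ end.

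The mature sequences follow, since the seeds show that these 5 genes share a kind of locus but are not a sequence family. They are from RefSeq (GRCm38.p6), where all 5 genes matched, written 5′ to 3′ with the seed in capitals.
miR-335-5p: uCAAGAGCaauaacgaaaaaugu
miR-335-3p: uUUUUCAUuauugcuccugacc
miR-296-5p: aGGGCCCCcccucaauccugu
miR-296-3p: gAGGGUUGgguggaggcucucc
miR-298-5p: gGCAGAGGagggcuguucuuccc
miR-298-3p: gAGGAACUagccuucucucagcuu
miR-675-5p: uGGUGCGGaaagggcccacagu
miR-675-3p: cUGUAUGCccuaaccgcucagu
miR-483-5p: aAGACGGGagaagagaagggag
miR-483-3p: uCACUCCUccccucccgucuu

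None of the 10 seeds is also the seed of a mature sequence of another gene in that table. This holds for 1182 of its 1738 mature mouse microRNAs (68.0%), so a seed held by a single gene is common. Their composition differs widely. The arm miR-296-5p is 66.7% G or C and holds a run of 7 identical bases, and 7 of the 1738 sequences, this arm included, have a run of that length or longer. Of the 22 bases of miR-483-5p 21 are purines, the highest purine share in the table, and its partner miR-483-3p has only 2 purines. The arms of Mir335 are poor in G and C, at 30.4% and 36.4%.

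A count stands for a whole precursor gene, so the products of the arms are not told apart in the values that follow. Reads assigned to microRNA genes came to 4764797 in replicate 1 and 2852269 in replicate 2, or 36.1% and 36.4% of all reads, while 40.8% and 37.1% mapped to several places and were not assigned to a gene. Levels are CPM, counts scaled to the assigned total of each library, and 3 counts, the limit that a count of 0 allows, are 0.630 CPM in replicate 1 and 1.05 in replicate 2. None of the 5 hairpins shares a run of 20 bases or more with another microRNA gene, against 1133 of 2202 genes that do, and the longest shared run was 14 bases, in Mir335. All 5 had 0 counts on the opposite strand in both libraries. Intervals and tests on these reads take in only the error of counting, and not the spread between animals or library preparations. PCR copies were not told apart by molecular identifiers, so even the error of counting may be understated.

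Of the 5 genes, 4 were detected, at 10 counts or more in both libraries. Mir298 and Mir296 of the Gnas locus were the most abundant, Mir335 followed, Mir483 was about an order of magnitude lower, and Mir675 of H19 was at the floor. In sum the 5 genes held 1.06% of the assigned reads in replicate 1 and 1.74% in replicate 2. Mir298 supplied 40.1% of this sum in replicate 1 and 66.1% in replicate 2. Without Mir298 the sums were 0.636% and 0.591%. The rise of the sum was therefore that of Mir298 alone.

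**Figure D1:**
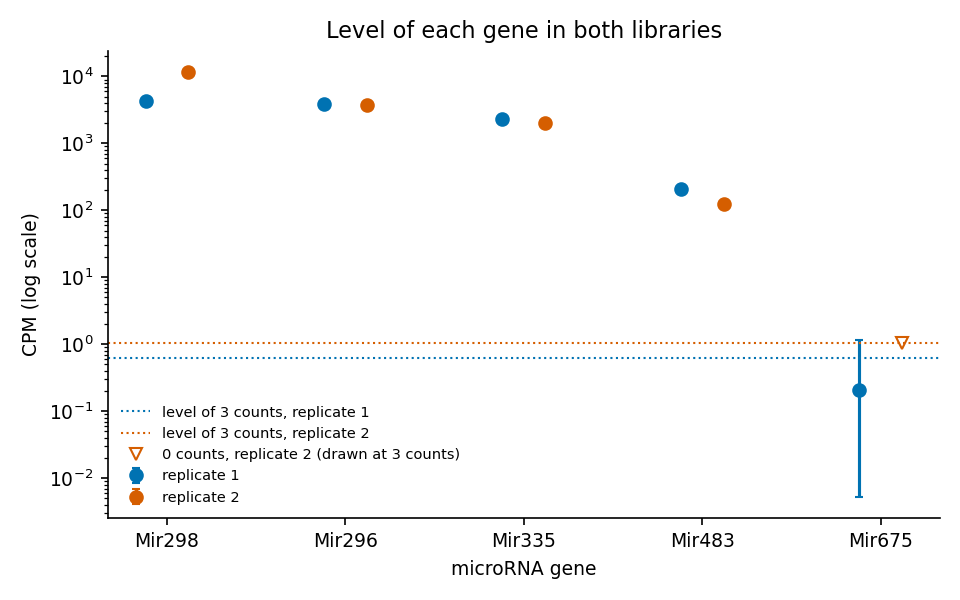
Level of each gene in CPM on a log axis, 1 point per library, with exact Poisson 95% intervals and the level of 3 counts as dotted lines; the triangle marks a count of 0. Mir298 is the gene whose libraries lie far apart, at 4256 and 11534 CPM, and Mir675 is at or below 3 counts in both.

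The gene Mir298 (ENSMUSG00000065410.1, chr2:174267504-174267585, minus strand) had 20279 counts in replicate 1 and 32898 in replicate 2. Its level was 4256 CPM (exact Poisson 95% interval 4198 to 4315) and 11534 CPM (11410 to 11659), a mean of 7895 ± 5146 CPM (SD, n = 2). It took place 43 among all genes in replicate 1 and place 19 in replicate 2. Replicate 2 thus held more Mir298 reads than replicate 1 although it was the smaller library.

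Mir296 (ENSMUSG00000065521.1, chr2:174267047-174267125, minus strand) had 18392 and 10704 counts. These are 3860 CPM (3804 to 3916) and 3753 CPM (3682 to 3825), a mean of 3806 ± 75.8 (SD, n = 2), at places 48 and 47. Among the 4 detected members its CPM values were the closest together in proportion to the level.

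The hairpins of this pair are shown because they lie only 378 bases apart on the same strand and yet gave different results. Each is from RefSeq (GRCm38.p6), 5′ to 3′, with both mature arms in capitals.
Mir298: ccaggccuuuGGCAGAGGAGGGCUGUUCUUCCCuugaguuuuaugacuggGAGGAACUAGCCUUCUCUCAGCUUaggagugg
Mir296: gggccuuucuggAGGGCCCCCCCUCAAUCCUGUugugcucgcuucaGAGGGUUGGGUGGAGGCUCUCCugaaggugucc

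Neither gene lies within another annotated gene in M21. Nespas, on the same strand, spans 174281237 to 174295436 and ends 13.7 kb before Mir298 and 14.1 kb before Mir296, and Gnas itself is on the plus strand. Mir298 comes first in the direction of transcription. Its hairpin is 53.7% G or C and that of Mir296 is 63.3%, higher than in 87.3% of detected genes.

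Mir335 (ENSMUSG00000065501.1, chr6:30741299-30741396, plus strand) lies in an intron of all 7 Mest transcripts that span it, out of 11 annotated. It had 10953 and 5802 counts. The levels were 2299 CPM (2256 to 2342) and 2034 CPM (1982 to 2087), a mean of 2166 ± 187 (SD, n = 2), at places 71 and 76. Its hairpin is the only one of the 5 with a G and C content below the median of detected genes, at 42.9% against 52.1%.

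Mir483 (ENSMUSG00000070140.1, chr7:142654924-142654996, minus strand) lies in an intron of all 7 Igf2 transcripts that span it, and of the overlapping gene model Gm49394. It had 978 and 358 counts. The levels were 205 CPM (193 to 219) and 126 CPM (113 to 139), a mean of 165 ± 56.4 (SD, n = 2), at places 180 and 196. Replicate 2 was the lower library by more than the counting intervals.

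Mir675 (ENSMUSG00000076275.1, chr7:142577064-142577147, minus strand) overlaps an exon in 3 of 7 annotated H19 transcripts, exon 1 in 2 of them and exon 2 in the other, and lies in an intron of 1 more. It had 1 count in replicate 1 and 0 in replicate 2. The level was 0.210 CPM (0.00531 to 1.17) in replicate 1 and 0 CPM (0 to 1.29) in replicate 2, where the limit of 3 counts is 1.05 CPM. It was thus not detectable at this depth in replicate 2, and a single read in replicate 1 shows no difference between the libraries.

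Mir483 and Mir675 lie 77.8 kb apart in the same imprinted domain and on the same strand. Within replicate 1 Mir483 had 978 reads for the single Mir675 read (ratio 978, exact counting interval 175 to 38668). Within replicate 2 it was at least 119-fold higher than the 3 counts that a 0 allows for Mir675, and the exact interval of the ratio, which also takes in the counting error of Mir483, begins at 96.5. Their hairpins are of like length, 73 and 84 bases.

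By level, Mir298 exceeded Mir296, Mir296 exceeded Mir335, Mir335 exceeded Mir483 and Mir483 exceeded Mir675 in both libraries. Per 100 hairpin bases, CPM levels kept this order in both libraries, at 5190 and 14066 for Mir298, 4886 and 4750 for Mir296, 2346 and 2076 for Mir335, and 281 and 172 for Mir483. Mir298 and Mir296 did not differ in mean by more than the SD of Mir298, and in replicate 1 their ratio was only 1.10 (1.08 to 1.12). The steps from Mir296 to Mir335 and from Mir335 to Mir483 were larger than the SDs of both genes. Equal numbers of molecules of different sequence need not give equal numbers of reads in a ligated small RNA library, so this order is one of reads.

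Genes of the same level place these values in the hippocampal profile. The genes just above Mir298 were Mir151 at 8223 ± 970 CPM and Mir30d at 8259 ± 1039 (SD, n = 2), and those just below were Mir92b at 7469 ± 1934 and Mir125a at 7420 ± 2493. Mir296 stood between Mir93, of a proliferation-linked cluster, at 4136 ± 462 and Mir30a at 3545 ± 641, with Mir378a at 3974 ± 876 and Mir181b-2 at 3373 ± 733 the others nearest to it. Mir335 stood between Mir423 at 2241 ± 841 and Mir543 at 2165 ± 2190, with Mir341 at 2286 ± 189 and Mir484 at 2120 ± 361 next. Mir483 stood between Mir539 at 174 ± 95.3 and Mir18 at 165.2 ± 44.7, with Mir1188 at 175 ± 35.3 and Mir299a at 164 ± 74.0 next. Of these, Mir378a, Mir181b-2, Mir539 and Mir299a have at least 20 bases in common with another microRNA gene, which makes their levels uncertain. The ranges of the 2 libraries overlapped between each of these 4 members and all 4 of its level neighbours, so these places are not resolved. The detected genes closest above Mir675 were Mir146b, uncertain for the same reason as those 4, at 2.91 ± 0.847 CPM and Mir3058 at 2.98 ± 1.24. Its range did not reach theirs.

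The only comparison that the design allows is between the 2 pools, and it compares these libraries and not conditions. It used library sizes scaled by TMM, a trimmed mean of gene-wise ratios, and an exact binomial test with Benjamini-Hochberg adjustment over the 450 genes whose counts in both libraries summed to 20 or more. Of these, 292 passed (64.9%), 148 higher in replicate 2 (32.9%) and 144 lower (32.0%). All 4 tested members passed, 2 higher and 2 lower, with a median log2 ratio of 0.01, beside a median of 0.01 over all tested genes. Among the 273 tested genes that averaged 100 counts or more, as these 4 did, 86.8% passed, so passing says little about the members. Ratios beyond 2-fold were found in 22.0% of the 450 genes, and in 10.7% in the higher direction. Of the members, Mir298 was the 1 beyond 2-fold.

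Mir298 was 2.95-fold higher in replicate 2, a log2 ratio of 1.56 (exact 95% counting interval 1.54 to 1.59). The ratio was smaller in size in 88.9% of tested genes. Mir483 fell by 0.59 on the log2 scale (interval -0.77 to -0.41, exact binomial test with Benjamini-Hochberg adjusted p = 3.77e-11). In 57.6% of tested genes the ratio was smaller in size. These 2 calls held under each scaling, filter and counting column tried.

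Mir296 and Mir335 differed little between the pools. The log2 ratio of Mir296 was 0.08 (0.05 to 0.12, exact binomial test with Benjamini-Hochberg adjusted p = 8.08e-06). In 6.67% of tested genes the ratio was smaller in size. With total counts as library sizes, which shift all ratios by -0.12, the ratio of Mir296 was -0.04 (-0.08 to -0.01). With scaling over all genes that had a count it was 0.01 (-0.02 to 0.04) and did not pass. The direction of Mir296 therefore depends on the scaling. The log2 ratio of Mir335 was -0.05 (-0.10 to -0.01, adjusted p = 0.0333 by the same exact test). In size, 4% of tested genes had a smaller ratio, so under TMM scaling Mir335 was closer to 0 than Mir296. It was -0.18 with total counts and -0.13 with scaling over all genes that had a count, both past the test, and -0.04 (-0.09 to 0.00), not past it, in counts that ignore strand. The ratio of Mir335 was thus below 0 under each alternative, but it ranged from -0.04 to -0.18, so its size depends on the processing. Mir298 moved far more than either gene.

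**Figure D2:**
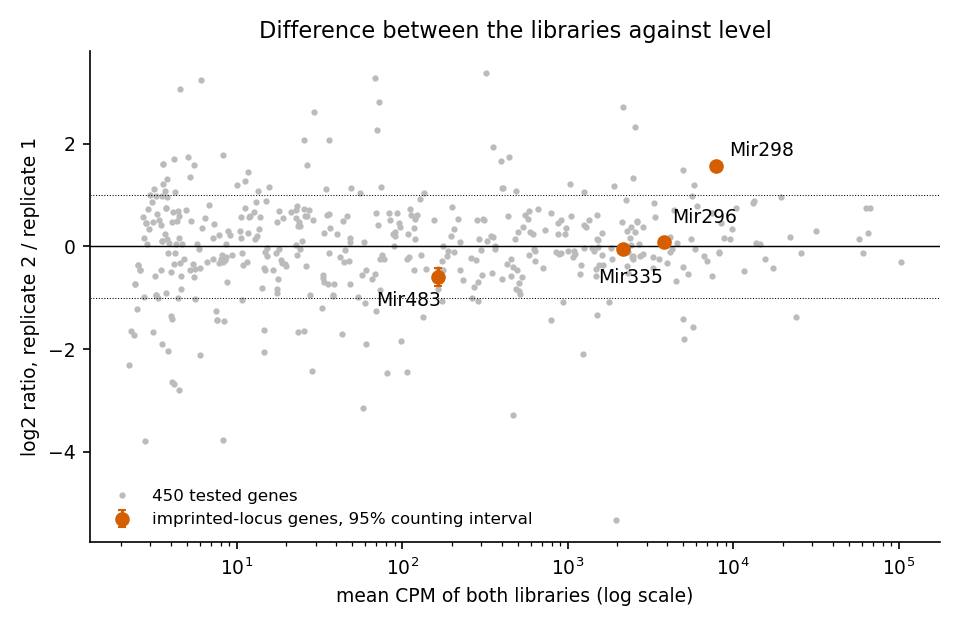
Log2 ratio of replicate 2 to replicate 1 (vertical) against mean CPM on a log axis for 450 tested genes in grey, with the imprinted-locus genes in orange and their 95% counting intervals; dotted lines mark 2-fold. Mir335 and Mir296 lie near 0, Mir483 at -0.59 and Mir298 at 1.56.

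The ratio of Mir298 to Mir296 reads needs no library size, because both are read from the same library. In replicate 1 it was 1.10 (exact counting interval 1.08 to 1.12) and in replicate 2 it was 3.07 (3.01 to 3.14), a change of 2.79-fold (95% interval 2.71 to 2.87). The reads of Mir296 per read of Mir335 changed far less, from 1.68 (1.64 to 1.72) to 1.84 (1.79 to 1.91). Those of Mir335 per read of Mir483 went from 11.2 (10.5 to 12.0) to 16.2 (14.6 to 18.1). Reads of Mir298 per read of Mir335 rose from 1.85 (1.81 to 1.90) to 5.67 (5.51 to 5.83). Mir298 thus changed 2.79-fold against its close neighbour Mir296 and 3.06-fold (2.95 to 3.18) against Mir335 of another chromosome. Both values mainly restate the ratio of Mir298 itself, since Mir296 and Mir335 differed little between the pools.

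Other close neighbours show how common such a shift is. Pairs were formed from microRNA genes averaging 100 counts or more, each with the next such gene of its strand at most 10 kb away. Genes that overlap another microRNA gene were left out, and genes of fewer counts may lie between those of a pair. Within a pair, the log2 ratios differed by a median of 0.57 (quartiles 0.26 and 0.87, 75 pairs). Mir296 and Mir298, with a difference of 1.48, took place 8 of 75, and 16 pairs differed by more than 1. The largest difference, 2.81, was between Mir666 and Mir543 of the Dlk1-Dio3 region. Outside that region, and with no run of 20 bases shared with another gene, 4 of 20 pairs exceeded Mir296 and Mir298. Those 4 were Mir429 and Mir200b at 1.67, Mir542 and Mir351 at 1.61, Mir99b and Mir125a at 1.53, and Mir34c and Mir34b at 1.49. A change of balance between neighbours was therefore not particular to the Gnas locus. The pairs were examined after the values of Mir296 and Mir298 were seen, and they carry no test.

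**Figure D3:**
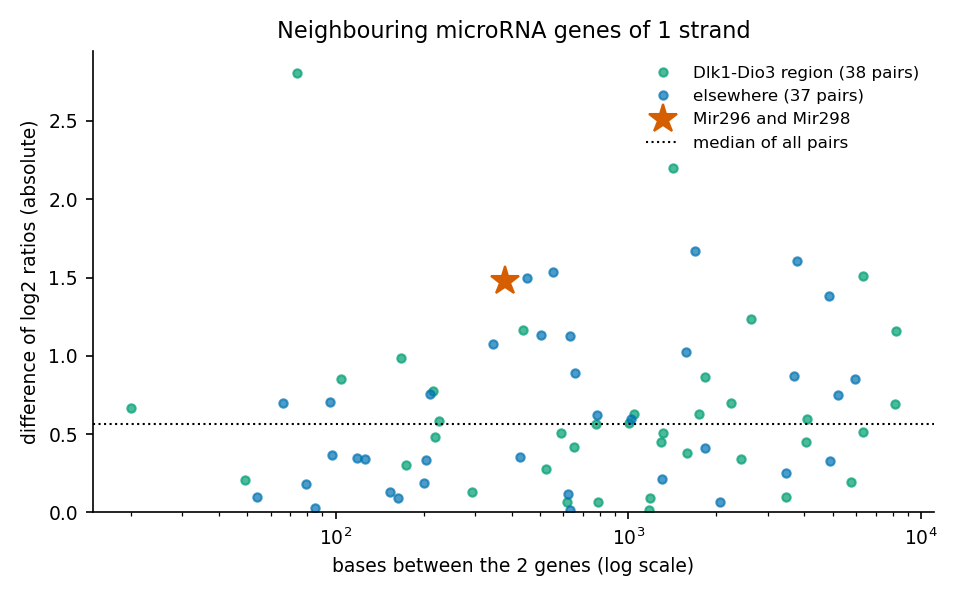
Absolute difference of the log2 ratios (replicate 2 to replicate 1) of adjacent same-strand microRNA genes against the bases between them on a log axis, 75 pairs, coloured by region. The star is Mir296 and Mir298 at 378 bases and 1.48, above the dotted median of 0.57.

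Within 1 Mb of Mir335 the tables hold 6 microRNA genes, of which 5 had counts, none of them in Mest. Mir29a, of a family that accumulates in the maturing brain, lies 321 kb away on the opposite strand. Its levels, 1495 and 1514 CPM, were below those of Mir335 in both libraries. Mir29b-1 beside Mir29a had 16.2 and 21.7 CPM and has at least 20 bases in common with another microRNA gene, so it is uncertain. On the other side, 572 to 575 kb away, lies the sensory and epithelial cluster of Mir183, Mir96 and Mir182. Mir183 had 66 and 352 counts, a log2 ratio of 3.28 (2.89 to 3.68), Mir182 had 42 and 142 counts, a log2 ratio of 2.62 (2.11 to 3.15), and Mir96 had 1 and 4 counts. The interval of Mir335, at -0.10 to -0.01, lay apart from those of Mir183 and Mir182. Gm23049 had 0 counts in both libraries.

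Around Mir296 and Mir298 the tables hold 2 further microRNA genes within 1 Mb, Gm27591 and Mir6340, and both had 0 counts. Gm27591 has a run of 20 or more bases in common with another microRNA gene, so its reads may be among those not assigned. Around Mir483 and Mir675, Mir3104 had 14 and 16 counts, Mir7063, which is within 1 Mb of Mir675 only, had 19 and 17, and Mir7064 had 2 and 1. At 978 and 358 counts, Mir483 was the most abundant microRNA gene of this stretch of chromosome 7.

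**Figure D4:**
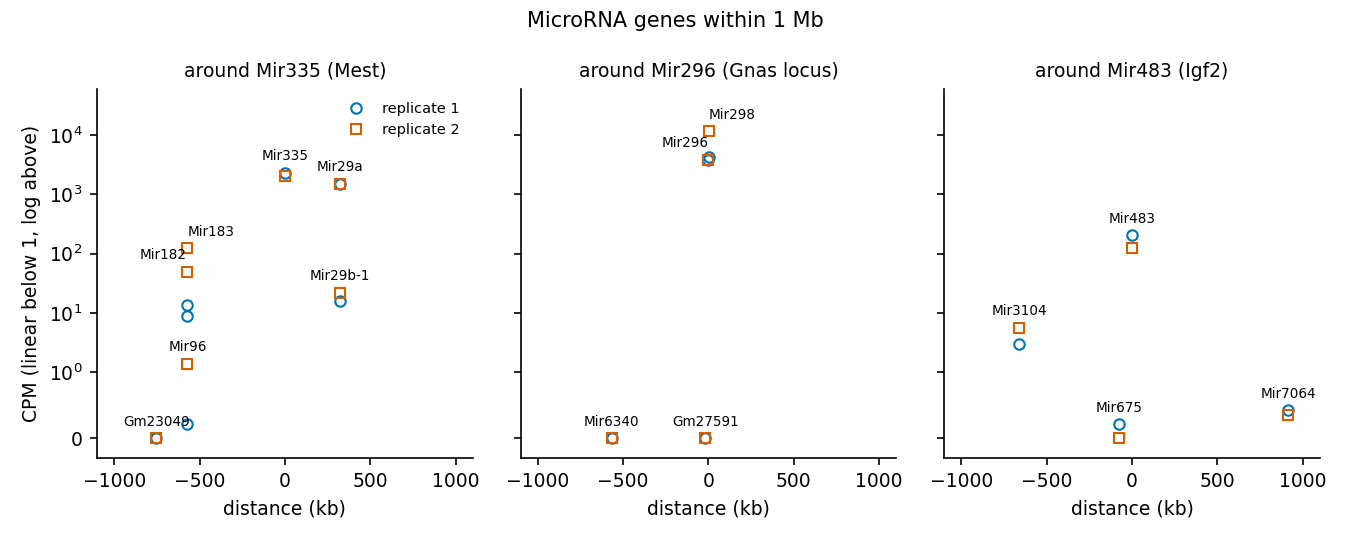
CPM in replicate 1 (circles) and replicate 2 (squares) of every microRNA gene within 1 Mb of Mir335, Mir296 and Mir483, by distance in kb from that gene; the vertical axis is linear below 1 and logarithmic above. Mir298 and Mir296 are the genes with counts in their window, and Mir675 lies at the bottom of the window of Mir483.

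Other microRNA genes of imprinted loci were taken by position alone, and their imprinting in this tissue was not tested. By assigned reads, only those of the Dlk1-Dio3 region were more abundant in sum. The 67 genes between Dlk1 and Dio3 held 20.4% and 22.9% of the assigned reads, with 24 of 52 tested genes higher in replicate 2 and 18 lower, and log2 ratios from -1.80 to 2.71. The 119 genes within Sfmbt2 held 0.226% and 0.243%, with 2 of 8 tested genes higher and 3 lower. Of the 119, 105 had 0 counts in both libraries, and 117 have a run of 20 or more bases in common with another microRNA gene. By assigned reads the 5 genes described here, at 1.06% and 1.74%, lay between these groups, though the sums cover unlike numbers of genes. Reads that mapped to several places were left out, so the sum of the Sfmbt2 genes may be too low. The members' own ratios, from -0.59 to 1.56, lie inside the range of the Dlk1-Dio3 genes.

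The marker microRNAs of the tissue and of other cell types moved between the pools as follows, and their part in the members' ratios was not tested. Neuronal markers held 2.55% and 2.59%, led by the activity-induced Mir132 at 4678 and 7461 CPM, with 9 of 12 genes detected, 4 of 9 tested genes higher in replicate 2 and 3 lower. For 10 of the 12, a run of 20 or more bases is also found in another microRNA gene, so their levels are uncertain. Choroid plexus and ciliated cell markers, of interest beside Mir483 because of the source of Igf2 in brain, held 0.395% and 0.119%. Of 5 tested, 4 were lower in replicate 2 and none higher. They were led by Mir204 at 2027 and 439 CPM, and Mir449b was at 0. Epithelial markers rose from 0.0173% to 0.0543%, with 7 of 9 tested higher and 1 lower, led by Mir429 at 19.5 and 126 CPM.

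Markers of other cells gave smaller or mixed shifts. Vessel and smooth muscle markers held 1.60% and 2.03%, led by the endothelial Mir126a, with 1 of 3 tested higher and 2 lower, and Mir145b and Mir126b were at 0. Red blood cell markers held 0.0290% and 0.0722%, led by Mir451a, with 1 of 3 higher. Oligodendrocyte markers held 0.193% and 0.320%, led by Mir219a-2, with 2 of 3 higher. Microglia and immune markers held 0.247% and 0.188%, led by Mir150, with 4 of 6 lower and none higher. Liver and pancreas markers held 0.0700% and 0.0383%, led by Mir375, with 1 of 4 higher and 2 lower, and muscle markers held 0.00743% and 0.00344%, nearly all from Mir206, with Mir1a-1, Mir133a-1 and Mir133a-2 at 0. Runs of 20 or more bases are common to another microRNA gene in 4 of 5 muscle, 4 of 4 oligodendrocyte, 2 of 3 red blood cell, 2 of 5 vessel and 2 of 6 immune genes, so low or 0 counts of these lists hold for assigned reads only. In bulk tissue, fewer cells of a type and less RNA per cell cannot be told apart. With 1 library per pool, a difference between animals and a difference in library preparation cannot be told apart either.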

How the data were processed

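Per the text deposited with the tables, the authors quantified microRNA genes on assembly mm10 (GRCm38) with GENCODE annotation M21. The deposited values are raw counts of reads per gene in 3 columns without a header, read as unstranded and 1 per strand. Aligner and counter: not given in the sources used here. Counts from the strand with the larger sum were taken as sense. Lines for unmapped, multi-mapping and unassigned reads, 63.9% and 63.6% of all reads in replicates 1 and 2, stayed out of library sizes. All 2202 identifiers matched M21, and sequences are from RefSeq GRCm38.p6.

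CPM, exact Poisson intervals and exact binomial tests were computed in Python 3.11.15 with scipy 1.17.1. TMM factors came from edgeR 4.0.16 under R 4.3.3 and alternative size factors from DESeq2 1.42.0. With 1 library per pool no test of replicate spread between pools exists. On simulated counts for 429 genes with counting noise only, the test called 2.5% of 240 unchanged genes, 90.0% of 50 genes with a 2-fold rise and 84.1% of 44 genes with a 2-fold fall.

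Named genes are the members, their nearest detected genes by level, the microRNA genes within 1 Mb and the leading gene of each marker list. Other genes, Mir666 and the further pairs among them, were chosen after their values were seen. Members and lists were chosen with earlier results of these data known.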

Additional observations from a re-analysis of the deposited data

How the results depend on the processing

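Mir298 stayed higher and Mir483 lower in replicate 2 under DESeq2 size factors, total counts, unstranded counts, no filter and a summed count of at least 200. The ratio of Mir296 was reversed to -0.041 with total counts and no longer passed at 0.0097 with no filter, which also adds genes of low count to the scaling. The ratio of Mir335 no longer passed at -0.044 in unstranded counts, while it was -0.18 with total counts and -0.13 with no filter. The mean level of Mir335 was 2420 CPM when the most abundant gene was left out of the library size, and that of Mir296 was 4248 CPM then and 4063 CPM in unstranded counts, both by construction of the smaller total. Leaving out each replicate gave the other library's level. The number of detected members remained 4 at minimums of 5 or 20 counts. The place of Mir296 and Mir298 among neighbouring pairs was 12 of 98 when a summed count of 20 was enough, a choice made after seeing the data. With 2 libraries, leaving 1 out gives no ratio. No paired analysis was possible because the labels give 1 group.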
